A study of Homo sapiens with 6 samples.

Results

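The 9 genes described here encode the cell-surface display of HLA class I molecules and the checkpoint ligand PD-L1. They are HLA-B, HLA-C and HLA-E, the light chain gene B2M, the peptide transporter genes TAP1 and TAP2, the tapasin gene TAPBP, the class I transactivator gene NLRC5, and CD274, which encodes PD-L1. They were taken by symbol from the deposited count table, 9 of 20020 genes listed, and all 9 passed the filter on low counts. RNA level was measured, not protein or surface display.

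All samples were 786-O cells, an established human clear cell renal carcinoma line, kept in RPMI medium with fetal bovine serum. In 3 samples a short hairpin RNA named shIGF2BP2 was directed at IGF2BP2, the gene of a protein that binds N6-methyladenosine in RNA. The other 3 samples are labelled puro, a name the labels do not spell out. The table holds 6 columns for the shIGF2BP2 samples, 3 whose names start with a 3 after the hairpin name (set 3) and 3 with a 2 (set 2), and 3 puro columns. The labels do not say what the set number stands for, which hairpin was used, or whether the cells were clones or pools, and they name no interferon treatment. Nor do they say if samples were grown apart, and the p-values therefore cover the spread among these samples alone, which could be technical. Both comparisons with puro use the same 3 puro columns and are therefore not independent of each other.

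Class I molecules show peptides from inside the cell to CD8 T cells. Proteasomes cut proteins, the TAP1-TAP2 transporter carries the peptides into the endoplasmic reticulum, tapasin holds an empty heavy chain beside the transporter until a peptide binds, and the heavy chain leaves for the surface with beta-2-microglobulin. NLRC5 drives transcription of the heavy chains, B2M and the peptide supply genes through a conserved promoter module, while interferon-gamma raises most of these genes and CD274, in part through IRF1. PD-L1 binds PD-1 on T cells and restrains them, and antibodies that block this pair are used to treat clear cell renal carcinoma.

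Promoters are shown for the 4 genes with the largest log2 fold changes in set 3 against puro, CD274, TAPBP, TAP1 and HLA-C, because several of the motifs known to control these genes lie in them. Each is the 250 bases before the annotated start in RefSeq's GRCh38.p14 table, written 5′ to 3′ on the gene's strand, and is reference sequence rather than the alleles of 786-O. The table had windows for 7 of the 9 genes, all but HLA-E and NLRC5. The windows are chr9:5450292-5450541 on the plus strand for CD274, and on the minus strand chr6:33314079-33314328 for TAPBP, chr6:32853705-32853954 for one of 2 annotated TAP1 starts, and chr6:31272093-31272342 for HLA-C. Capitals mark matches, on either strand, to an interferon regulatory factor core (AANNGAAA), a CCAAT box (CCAAT), a sequence like the X2 box of the class I module (TGACG), the NF-kB consensus, or a GAS element (TTCNNNGAA). Adjoining or overlapping matches run together.
CD274: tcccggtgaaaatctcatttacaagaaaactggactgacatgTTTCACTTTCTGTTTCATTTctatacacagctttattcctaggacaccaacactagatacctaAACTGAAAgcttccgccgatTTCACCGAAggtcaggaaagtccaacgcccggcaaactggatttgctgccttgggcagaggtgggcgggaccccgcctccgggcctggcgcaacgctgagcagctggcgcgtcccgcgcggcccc
TAPBP: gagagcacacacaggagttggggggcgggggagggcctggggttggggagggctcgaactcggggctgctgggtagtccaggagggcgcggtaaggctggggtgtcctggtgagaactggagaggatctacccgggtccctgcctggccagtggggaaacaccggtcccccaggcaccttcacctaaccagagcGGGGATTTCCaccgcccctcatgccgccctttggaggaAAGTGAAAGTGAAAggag
TAP1: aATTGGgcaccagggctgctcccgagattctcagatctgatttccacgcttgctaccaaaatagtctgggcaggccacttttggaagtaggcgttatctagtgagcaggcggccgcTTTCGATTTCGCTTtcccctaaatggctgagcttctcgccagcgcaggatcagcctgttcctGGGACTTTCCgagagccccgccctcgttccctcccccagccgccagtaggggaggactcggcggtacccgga
HLA-C: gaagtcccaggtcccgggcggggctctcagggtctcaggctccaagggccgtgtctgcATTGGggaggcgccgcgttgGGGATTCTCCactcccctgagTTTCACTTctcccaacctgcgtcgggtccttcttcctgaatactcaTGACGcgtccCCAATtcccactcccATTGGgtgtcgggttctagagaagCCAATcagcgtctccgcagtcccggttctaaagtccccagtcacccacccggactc
The CD274 window held 4 interferon regulatory factor cores and 1 GAS element, with no CCAAT, X2-like or NF-kB match in these letters. The TAPBP window and the TAP1 window shown each held 2 such cores that overlap, and 1 NF-kB match, and the TAP1 window also had 1 CCAAT box. The window of the other TAP1 start, chr6:32852762-32853011 on the minus strand, held 1 GAS match and 0 of the other motifs. HLA-C held 1 core, 1 NF-kB match, 1 X2-like match and 4 CCAAT boxes. HLA-B, its closest relative here, held 1 core, 2 overlapping NF-kB matches, 1 X2-like match and 3 CCAAT boxes. B2M held 2 cores, 1 X2-like match, 1 CCAAT box and 1 NF-kB match, and TAP2 held only 2 cores and 1 X2-like match. Over 35116 RefSeq windows of the same 250 bases, 20.3% held a core, 32.0% a CCAAT box, 21.2% an X2-like match, 9.96% an NF-kB match and 6.57% a GAS match. These matches describe the letters only, and the core pattern was chosen after the sequences were seen.

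Column totals lay between 33821216 and 47470019 counts. Levels are given as CPM, counts put on a common scale by TMM factors, when columns are compared, and as the deposited FPKM, which also divides by gene length, when genes are compared. The targeted transcript had 33.7 ± 2.26 CPM in set 3, 23.9 ± 1.11 CPM in set 2 and 76.8 ± 2.10 CPM in puro (SD, n = 3 each), a log2 fold change of -1.19 in set 3 and -1.68 in set 2. Columns of the same kind correlated at 0.996 to 0.998 across genes on the log2(CPM + 1) scale and columns of different kinds at 0.972 to 0.977, so set 3 stood about as far from set 2 as from puro. All 8 genes of a renal line marker list were above 1 CPM, though PAX8, a renal lineage factor named after its values were seen, was at 129 CPM in set 3, 253 CPM in set 2 and 291 CPM in puro. Of 10 leukocyte markers 9 averaged under 1 CPM. ITGAM, also named after its values were seen, was the list's one called gene, lower in both sets, at 0.033, 0.281 and 1.21 CPM in set 3, set 2 and puro. The summed level of the list was 3.02 to 3.40 CPM in set 3, 3.05 to 4.15 CPM in set 2 and 4.20 to 5.02 CPM in puro, with MS4A1 at 0 in both sets. Of 8 fibroblast and endothelial markers 7 averaged under 1 CPM, with sums of 5.11 to 6.82, 5.02 to 5.52 and 7.36 to 9.21 CPM in set 3, set 2 and puro, and of the 4 tested COL1A1 fell in both sets, while KDR, an endothelial receptor gene, rose in set 2 (log2 fold change 1.05), at 0.460 CPM in set 3, 1.29 CPM in set 2 and 0.620 CPM in puro. Of the renal list 5 rose and 2 fell in each set, with PAX2 (log2 fold change 0.82 in set 3 and 0.40 in set 2) and KRT18 (0.67 and 0.53) higher and CDH6 (-1.23 and -1.13) lower. This was 87.5% of the renal list called in each set, against 55.6% of all tested genes in set 3 and 59.9% in set 2. Of the tested leukocyte markers 20% were called in each set. Of the tested fibroblast and endothelial markers 25% were called in set 3 and 50% in set 2. The marker lists were chosen with earlier results of these data known, so these shares only describe them. The part of these marker shifts in the results was not tested.

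The 9 genes spanned the high and middle range of this transcriptome, with the light chain and heavy chains far above the machinery that loads them. In puro, B2M averaged 504 ± 12.5 FPKM, above 99.5% of listed genes, HLA-C 335 ± 27.8 FPKM and HLA-B 185 ± 15.3 FPKM (SD, n = 3 each). HLA-E, the ligand of the NKG2A receptor on NK cells, followed at 69.3 ± 4.97 FPKM. TAP1 stood at 31.2 ± 2.75 FPKM and TAPBP at 23.2 ± 1.37 FPKM, then CD274 at 7.66 ± 0.627 FPKM, TAP2 at 5.29 ± 0.182 FPKM and NLRC5 at 2.36 ± 0.0391 FPKM (SD, n = 3 each). NLRC5 was still above 54.4% of listed genes. The same order of means held in set 3, set 2 and puro, apart from TAP1 and TAPBP. TAPBP was above TAP1 in set 3, at 33.4 ± 3.76 FPKM against 23.9 ± 1.20 FPKM, whereas TAP1 was above TAPBP in set 2, at 31.3 ± 1.98 FPKM against 28.1 ± 1.26 FPKM. Neighbours in this order did not overlap within an arm, with 1 exception, since B2M spanned 421 to 537 FPKM and HLA-C 363 to 440.2 FPKM in set 3. These levels rest on the gene lengths behind the deposited values, 3139 bases for HLA-B against 1560 bases for HLA-C, and on reads placed on the reference alleles. In a bulk library, fewer cells of a kind and less RNA per cell cannot be told apart for any of these genes.

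**Figure D1:**
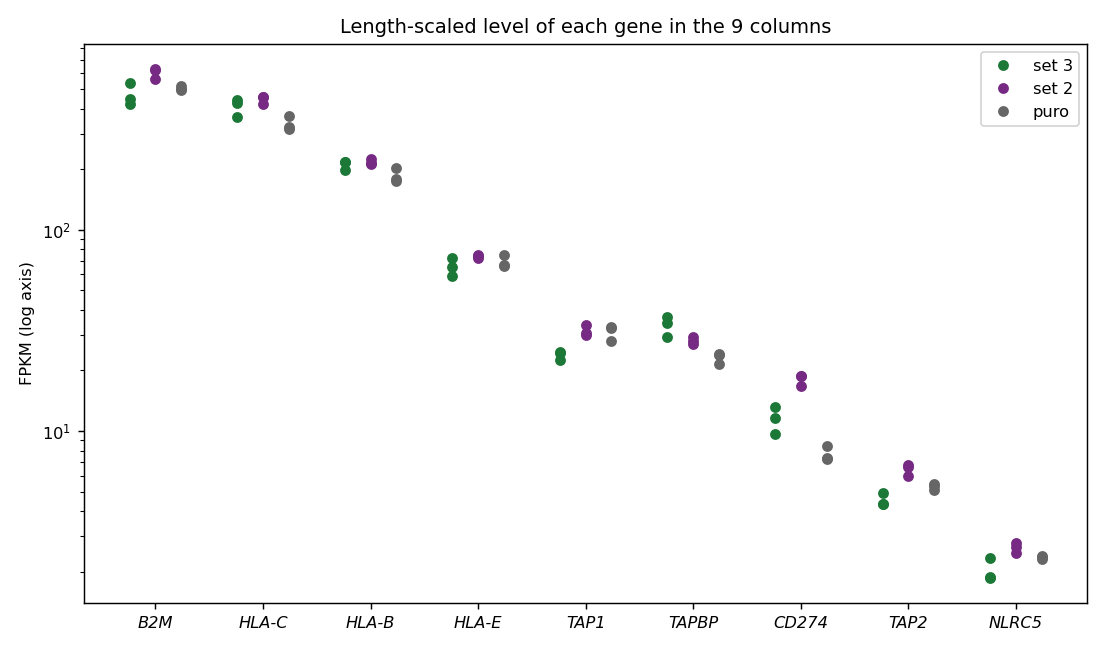
Deposited FPKM (log axis) of the 9 genes in each of the 9 columns, ordered by level, with set 3, set 2 and puro from left to right within each gene. B2M and HLA-C lead in all 3 kinds of column, and TAPBP lies above TAP1 only in set 3.

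Set against puro with the edgeR quasi-likelihood test, 6 of the 9 genes changed in set 3 and 4 of the 9 in set 2. In set 3, HLA-B, HLA-C, TAPBP and CD274 rose while TAP1 and TAP2 fell. In set 2, HLA-C, TAP2, TAPBP and CD274 rose and none fell, nor did any at an unadjusted p under 0.05 or with DESeq2 or limma. These counts stand beside a wide change in these cells: 55.6% of 13346 tested genes passed an FDR of 0.05 in set 3 (28% higher, 27.6% lower) and 59.9% in set 2 (30% higher, 29.9% lower). The median log2 fold change of the 9 genes was -0.06 in set 3 and 0.16 in set 2, beside 0.00 and 0.01 for all tested genes. CPM ranges did not overlap with puro for 6 of the 9 in set 3 and 5 of the 9 in set 2, against 58.5% and 66.2% of tested genes. Without regard to sign, the median change was 0.21 in set 3 and 0.16 in set 2, against 0.32 and 0.36 for all tested genes. With library totals in place of TMM factors the median of all genes moved to 0.10 in set 2, and 60.8% of the calls were higher there, against 50.04% with TMM. HLA-B and B2M then also passed as higher in set 2. CD274 was the gene among the 9 that moved most, with a log2 fold change above that of 88.8% of tested genes in set 3 and 95.2% in set 2.

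**Figure D2:**
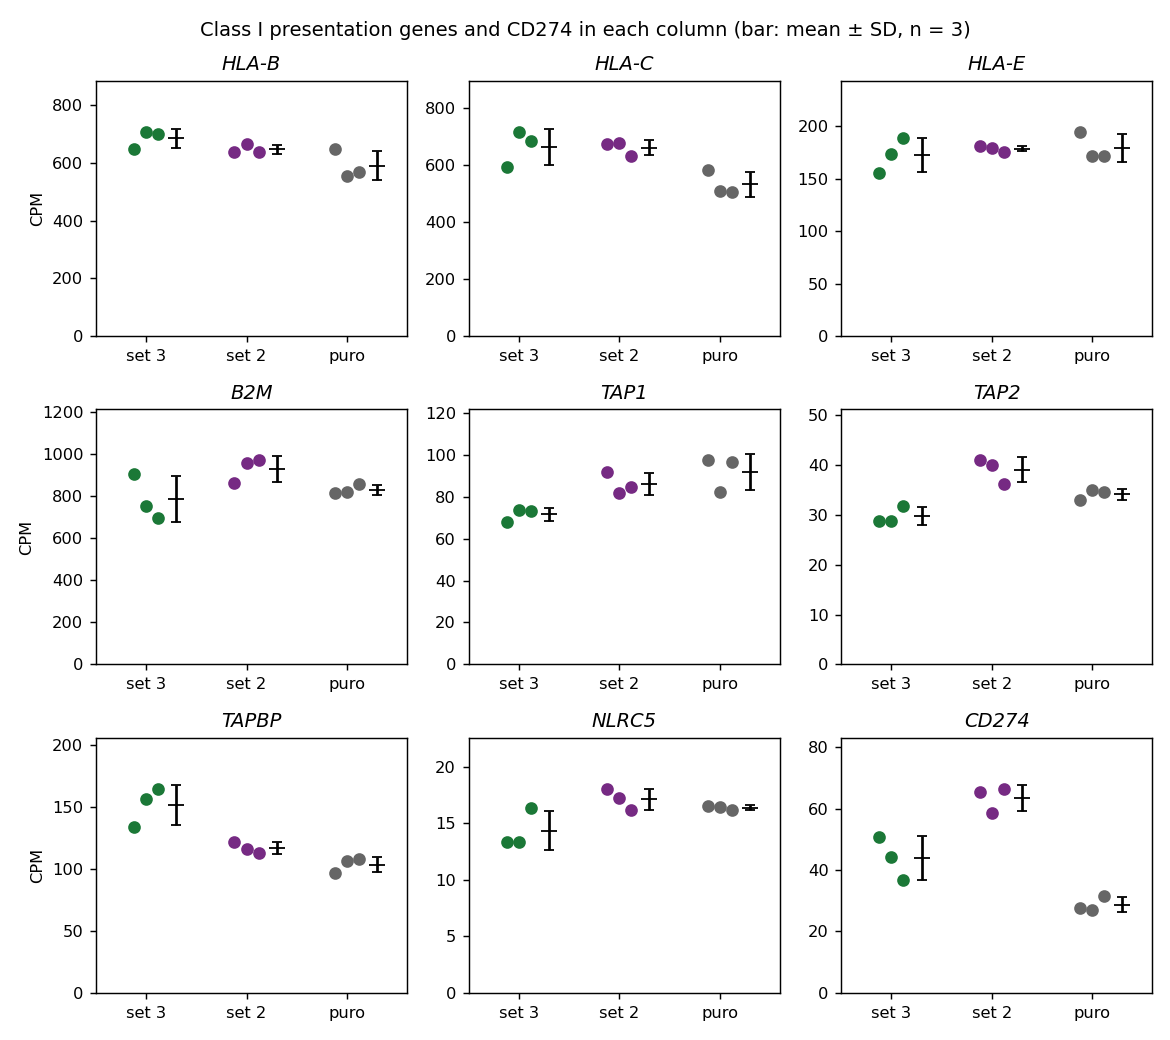
TMM-scaled CPM of each gene in every column (points: replicates 1, 2 and 3 from left to right; bars: mean ± SD, n = 3), set 3 left, set 2 middle, puro right. CD274 in puro lies at 26.9 to 31.5 CPM, below every set 3 and set 2 column, while HLA-E overlaps among all 3.

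CD274, the PD-L1 gene (chr9:5450503-5470566, plus strand, GENCODE 29 on GRCh38), was at 50.8, 44.4 and 36.7 CPM in set 3, 65.5, 58.7 and 66.4 CPM in set 2, and 27.7, 26.9 and 31.5 CPM in puro. Every set 2 column was above every set 3 column, and every set 3 column above every puro column. The level rose 1.53-fold in set 3, a log2 fold change of 0.61 ± 0.10 (SE; edgeR adjusted p = 4.39e-06). In set 2 it rose 2.21-fold, a log2 fold change of 1.15 ± 0.10 (SE; edgeR adjusted p = 5.71e-11, 95% interval 0.95 to 1.34). Set 3 was lower than set 2 by a log2 fold change of -0.53 ± 0.09 (SE; edgeR adjusted p = 1.68e-05). The ratio of CD274 to B2M within a column, which no scaling between columns affects, was 0.0246, 0.0259 and 0.0231 in set 3, 0.0335, 0.0269 and 0.0301 in set 2, and 0.0150, 0.0144 and 0.0162 in puro, both as FPKM. These ratios did not overlap between any 2 kinds of column. No 50-base stretch of the CD274 transcripts was shared with another gene.

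The classical heavy chain genes HLA-B and HLA-C, which present peptides to CD8 T cells, have annotated spans that overlap on chromosome 6 (HLA-C chr6:31268749-31272130 and HLA-B chr6:31269491-31357188, both minus strand). HLA-C had 591, 714 and 682 CPM in set 3, 672, 676 and 631 CPM in set 2, and 583, 509 and 503 CPM in puro. Both sets were wholly above puro and overlapped each other. HLA-C rose in set 3 by a log2 fold change of 0.32 ± 0.07 (SE; edgeR adjusted p = 0.000504) and in set 2 by 0.31 ± 0.07 (SE; edgeR adjusted p = 0.000547). Between set 3 and set 2 the difference was 0.01 with a 95% interval of -0.14 to 0.15 on the log2 scale, and its sign turned under other scalings.

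HLA-B had 649, 707 and 699 CPM in set 3, 637, 666 and 639 CPM in set 2, and 648, 555 and 570.2 CPM in puro. Replicate 1 of puro stood above the other 2 puro columns and inside the range of set 2, just under the lowest set 3 column. HLA-B rose in set 3 by a log2 fold change of 0.21 ± 0.07 (SE; edgeR adjusted p = 0.00736). Without puro replicate 2 the call was lost, with an edgeR adjusted p of 0.0556. In set 2 its log2 fold change was 0.13 ± 0.07 (SE) with an edgeR adjusted p of 0.0873, which did not pass. The annotated exons of HLA-B and HLA-C share 35 bases on the same strand, and 2.12% of the 50-base stretches of HLA-B and 6.17% of those of HLA-C occur in other genes, so reads split between such copies are uncertain.

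HLA-E (chr6:30489467-30494205, plus strand) presents signal peptides of other class I chains to NK cells. It had 156, 173 and 188 CPM in set 3, 181, 179.5 and 176 CPM in set 2, and 195, 172 and 172 CPM in puro, and all 3 kinds of column overlapped. Its log2 fold change against puro was -0.06 in set 3 (95% interval -0.20 to 0.09) and -0.01 in set 2 (95% interval -0.15 to 0.14). Neither passed (edgeR adjusted p = 0.521 and 0.948), and both signs turned under some alternatives. Of its 50-base stretches, 5.13% occur in other genes.

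B2M (chr15:44711487-44718877, plus strand), the light chain that every class I heavy chain needs, had 908, 753 and 698 CPM in set 3, 861, 958 and 970.0 CPM in set 2, and 813, 819.9 and 857 CPM in puro. Replicate 1 of set 3 was above every puro column and the other 2 below every puro column, while every set 2 column was above puro. The log2 fold change was -0.08 ± 0.08 in set 3 (SE; edgeR adjusted p = 0.397). It was 0.16 ± 0.08 in set 2 (SE; edgeR adjusted p = 0.0648). Neither passed, but without replicate 1 of set 3 B2M was called lower in that set (edgeR adjusted p = 0.00817), and without replicate 3 the sign turned. Set 3 was lower than set 2 by a log2 fold change of -0.24 ± 0.08 (SE; edgeR adjusted p = 0.00746), a call lost without replicate 3 of set 3 (log2 fold change -0.16; edgeR adjusted p = 0.0753). The summed FPKM of HLA-B, HLA-C and HLA-E over that of B2M was 1.15, 1.62 and 1.70 in set 3, 1.33, 1.21 and 1.13 in set 2, and 1.31, 1.13 and 1.08 in puro, and these ranges overlapped.

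The transporter genes did not move alike. TAP1 (chr6:32845209-32853978, minus strand) had 68.0, 73.8 and 73.0 CPM in set 3, 91.9, 81.8 and 84.4 CPM in set 2, and 97.2, 82.0 and 96.3 CPM in puro. All set 3 columns were below all others, while set 2 overlapped puro. TAP1 fell in set 3 by 0.36 ± 0.07 on the log2 scale (SE; edgeR adjusted p = 0.000198). In set 2 the log2 fold change was -0.09 ± 0.07 (SE; edgeR adjusted p = 0.282), and its sign turned with library totals. TAP2 (chr6:32821833-32838780, minus strand) had 28.8, 28.7 and 31.9 CPM in set 3, 41.0, 40.1 and 36.3 CPM in set 2, and 33.0, 35.0 and 34.6 CPM in puro. The 3 kinds of column did not overlap, with set 3 below puro and set 2 above it. TAP2 fell in set 3, with a log2 fold change of -0.20 ± 0.08 (SE; edgeR adjusted p = 0.0359), and rose in set 2, with 0.19 ± 0.08 (SE; edgeR adjusted p = 0.0344). Both TAP2 calls were lost under some alternatives, up to an adjusted p of 0.124 in set 3 and 0.132 in set 2 with edgeR, limma or DESeq2. In the direct comparison, whose calls held in all 16 alternatives for both genes, set 3 was lower than set 2 by a log2 fold change of -0.39 ± 0.08 for TAP2 (SE; edgeR adjusted p = 0.000102) and -0.27 ± 0.07 for TAP1 (SE; edgeR adjusted p = 0.00331). Of the 50-base stretches of TAP2, 32.7% also belong to another annotated gene on the same strand, so part of its count depends on how shared reads were treated.

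TAPBP (chr6:33299694-33314387, minus strand), encoding tapasin, had 134, 157 and 165 CPM in set 3, 122, 116 and 113 CPM in set 2, and 96.7, 106 and 108 CPM in puro. The 3 kinds of column did not overlap, with set 3 highest and puro lowest. TAPBP rose in set 3 by a log2 fold change of 0.55 ± 0.07 (SE; edgeR adjusted p = 4.31e-07) and in set 2 by 0.18 ± 0.07 (SE; edgeR adjusted p = 0.0418). The set 2 call was close to the threshold and lost in several alternatives, for example with DESeq2 size factors in edgeR (adjusted p = 0.0524). Set 3 was above set 2 by a log2 fold change of 0.37 ± 0.07 (SE; edgeR adjusted p = 8.10e-05).

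NLRC5 (chr16:56989485-57083531, plus strand), the transactivator, was the lowest of the 9, with 511 to 805 counts in a column. It had 13.4, 13.4 and 16.3 CPM in set 3, 18.0, 17.2 and 16.2 CPM in set 2, and 16.6, 16.5 and 16.2 CPM in puro, with overlap among all 3. Its log2 fold change against puro was -0.19 ± 0.10 in set 3 (SE; edgeR adjusted p = 0.112) and 0.06 ± 0.10 in set 2 (SE; edgeR adjusted p = 0.596). Without replicate 3 of set 3, NLRC5 was called lower in that set (log2 fold change -0.29; edgeR adjusted p = 0.0250). Set 3 was lower than set 2 by a log2 fold change of -0.25 ± 0.10 (SE; edgeR adjusted p = 0.0296), a call lost without certain single columns (edgeR adjusted p up to 0.13).

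**Figure D3:**
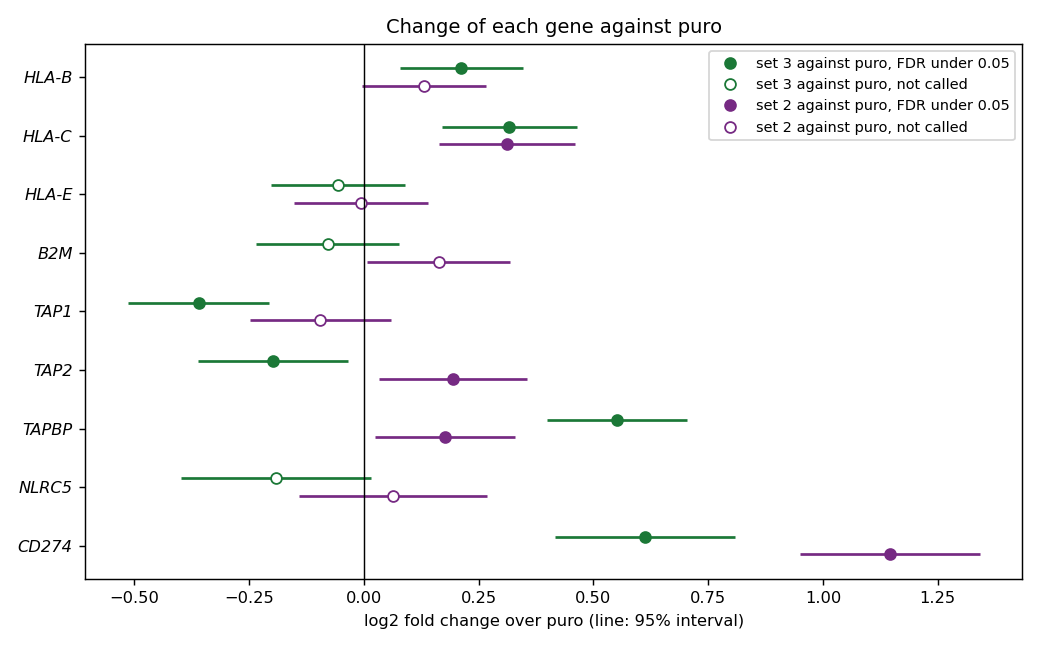
Log2 fold change of each gene over puro with its 95% interval, set 3 above set 2 for each gene, filled where the edgeR FDR is under 0.05. CD274 is farthest to the right in both sets at 0.61 and 1.15, and TAP2 lies on opposite sides of 0.

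Between the sets themselves, TAPBP was higher in set 3 and B2M, TAP1, TAP2, NLRC5 and CD274 were lower, 6 of 9 genes, against 60.7% of all tested genes (29.8% higher, 30.8% lower). With library totals alone 36.3% of all calls in this comparison were higher, against 49.2% with TMM factors. The heavy chain genes HLA-B, HLA-C and HLA-E did not pass. CPM ranges of the sets did not overlap for 4 of the 9, against 64.6% of tested genes. IGF2BP2 itself was higher in set 3 than in set 2 by a log2 fold change of 0.49 ± 0.08 (SE; edgeR adjusted p = 3.19e-06), so the depletion was deeper in set 2. The 2 columns that share a last number were then summed as a shIGF2BP2 sample, a reading that no label spells out. Same-numbered columns of set 3 and set 2 deviated from their set means with correlations of -0.243, -0.0226 and -0.202. These values cannot show whether such columns were grown or handled together. The sums thus join columns by their label, and their p-values rest on that reading. With 3 such sums against 3 puro samples, HLA-B, HLA-C, TAPBP and CD274 rose and TAP1 fell. In that comparison 58% of 13518 genes passed (28.8% higher, 29.2% lower). CD274 rose by a log2 fold change of 0.89 ± 0.07 (SE; edgeR adjusted p = 3.11e-09), 1.85-fold. TAPBP rose by 0.37 ± 0.06 and HLA-C by 0.30 ± 0.06 on the log2 scale (SE; edgeR adjusted p = 1.33e-05 and 9.64e-05). HLA-B rose by a log2 fold change of 0.16 ± 0.05 (SE; edgeR adjusted p = 0.0150) and TAP1 fell by 0.23 ± 0.06 (SE; edgeR adjusted p = 0.00335). If the first number is read as the sample instead, so that 2 shIGF2BP2 samples meet 3 puro samples, CD274 alone among the 9 passed (edgeR adjusted p = 0.0335). HLA-C then had an edgeR adjusted p of 0.127, TAPBP 0.138, HLA-B 0.364 and TAP1 0.366.

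The genes whose profile over the 9 columns was nearest to that of 4 of the 9 were found among 10301 genes of at least 5 CPM, as Euclidean distance of log2 CPM from the puro mean. For CD274 these were PBX3 at 0.307, YIPF6 at 0.344 and TMEM106B at 0.350, against a median distance of 2.42 over all candidates. For HLA-B they were BUD23 at 0.0974, CHTOP at 0.107 and ARPC5L at 0.114, against a median of 1.02. TAP1 was nearest to CALM3 at 0.162, MTHFD1L at 0.173 and DYRK1A at 0.196, and NLRC5 to CTBP1 at 0.156, KCNK3 at 0.173 and BRPF3 at 0.194, against medians of 1.14 and 1.04. The distance for CD274 was the longest of the 4, and CD274 also moved most.

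The genes around the 9 in the same pathways are given from lists chosen by known role, with earlier results of these data known. Their counts stand against 55.6% of all tested genes called in set 3 (28% higher, 27.6% lower) and 59.9% in set 2 (30% higher, 29.9% lower). A share near these is no result about a list. A share far from them is no test of a list either, since the lists were chosen with those earlier results known. Within each list the largest rise and fall in each set past the edgeR FDR are named by rule, and the other genes named were picked after their values were seen. Among 14 class I-like molecules and stress ligands, 5 rose and 1 fell in set 3, and 3 rose and 2 fell in set 2, with median log2 fold changes of 0.34 and 0.17. The shares called, 42.9% in set 3 and 35.7% in set 2, were below those of all tested genes. HFE, a class I-like regulator of iron uptake, rose by a log2 fold change of 0.84 in set 3 and 0.93 in set 2, at 15.6 ± 0.144 CPM in set 3, 16.7 ± 0.285 CPM in set 2 and 8.76 ± 0.567 CPM in puro (SD, n = 3 each). MR1, which shows vitamin metabolites to MAIT cells, fell by 0.76 in set 3 and by 0.88 in set 2 on a log2 scale, at 4.19 ± 0.545, 3.85 ± 0.178 and 7.06 ± 1.32 CPM in set 3, set 2 and puro (SD, n = 3 each). Of the NKG2D ligands, ULBP1 rose in set 3 (log2 fold change 1.15) at 2.08 ± 0.233 CPM in set 3 and 0.934 ± 0.322 CPM in puro, with 0.50 in set 2 not passing. MICA, another NKG2D ligand, rose by a log2 fold change of 0.39 in set 3 and 0.92 in set 2. The other NKG2D ligands listed did not move alike. ULBP2 rose by 0.30 in set 3, with 0.04 in set 2 not passing. RAET1G rose by 1.81 in set 2, with 0.09 in set 3 not passing. ULBP3 fell by 0.28 in set 2 on the log2 scale, with 0.04 in set 3 not passing. MICB, RAET1E and RAET1L passed in neither set.

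Peptide supply was mixed. Of 14 proteasome and peptidase genes, 1 rose and 5 fell in set 3, and 4 rose and 5 fell in set 2, with median log2 fold changes of 0.08 and -0.13. The list thus had 42.9% of its genes called in set 3 and 64.3% in set 2. The cytosolic aminopeptidase NPEPPS fell by 0.62 in set 3 and by 0.86 in set 2 on a log2 scale, at 121 ± 1.40 CPM in set 3, 103 ± 0.437 CPM in set 2 and 187 ± 8.19 CPM in puro (SD, n = 3 each). TPP2, a large cytosolic peptidase, rose by a log2 fold change of 0.31 in set 3, a call lost in 1 of 17 alternatives, and 0.35 in set 2. The aminopeptidases that trim peptides in the endoplasmic reticulum parted in set 2, where ERAP1 fell by 1.05 and ERAP2 rose by 0.44 on the log2 scale. In set 3 neither passed, with log2 fold changes of 0.10 and 0.09. ERAP1 was at 46.2 ± 1.23 CPM in set 3, 20.7 ± 1.48 CPM in set 2 and 43.0 ± 0.381 CPM in puro (SD, n = 3 each). The immunoproteasome subunit PSMB8 fell by 0.36 in set 3 and by 0.26 in set 2 on a log2 scale, while PSMB9, which shares a promoter region with TAP1, had log2 fold changes of 0.11 and -0.15 that did not pass.

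Of 11 chaperones and glycan enzymes of class I loading, 4 rose and 1 fell in set 3, and 5 rose and 2 fell in set 2, with median log2 fold changes of 0.14 and 0.11. The shares called were 45.5% in set 3 and 63.6% in set 2. PDIA3, the ERp57 disulfide isomerase that pairs with tapasin in the loading complex, fell by 1.33 in set 3 and rose by 0.27 in set 2 on the log2 scale. It was at 279 ± 3.04 CPM in set 3, 843 ± 5.31 CPM in set 2 and 702 ± 9.21 CPM in puro (SD, n = 3 each), and the difference of set 3 from set 2 was -1.60 (edgeR adjusted p = 3.18e-18). Tapasin and its partner thus lay on opposite sides of puro in set 3. HSPA5, the BiP chaperone, rose by a log2 fold change of 0.15 in set 3, a call lost in 10 of 17 alternatives, and by 0.42 in set 2. SAR1B, a coat protein of export vesicles, rose by a log2 fold change of 0.23 in set 3, a call lost in 3 of 17 alternatives, with 0.04 in set 2 not passing, and the translocon subunit SEC61A1 fell by 0.58 in set 2 on the log2 scale with 0.12 in set 3 not passing.

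Among 16 transcription factors known to act on class I genes, 4 rose and 5 fell in set 3, and 5 rose and 7 fell in set 2, with median log2 fold changes of -0.10 and 0.06. This was 56.25% of the list called in set 3 and 75% in set 2. IRF1, an interferon-induced activator of class I genes and CD274, fell by 0.69 and by 0.40 on the log2 scale in set 3 and set 2. Of the 9 genes described, HLA-B, HLA-C, TAPBP and CD274 rose in set 3 while TAP1 and TAP2 fell. In set 2, HLA-C, TAP2, TAPBP and CD274 rose and none fell. The part of IRF1 in these changes was not tested. IRF9, the DNA-binding subunit of the type I interferon factor ISGF3, rose in set 2 (log2 fold change 1.05, at 2.31 ± 0.282 CPM against 1.12 ± 0.0506 CPM in puro), with 0.25 in set 3 not passing. Of the factors that bind the class I promoter module, NFYB rose by 0.67 in set 3 with 0.19 in set 2 not passing, and RFX5 rose by 0.26 in set 3 and fell by 0.57 in set 2 on the log2 scale. NFYC fell by 0.45 in set 3 and by 0.31 in set 2, and RFXANK rose by 0.34 in set 3 and by 0.32 in set 2, on the same scale. NFYA and RFXAP rose in set 2 (log2 fold changes 0.25 and 0.69), with -0.04 and -0.26 in set 3 not passing. ATF1 fell by 0.34 in set 2, with -0.05 in set 3 not passing, and CREB1 passed in neither set (-0.08 in set 3 and -0.06 in set 2).

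In interferon signalling, 2 of 12 genes rose and 4 fell in set 3, and 6 rose and 5 fell in set 2, with median log2 fold changes of -0.02 and 0.20. The share called in set 3, 50% against 55.6% of all tested genes, was near the background, and that in set 2 was 91.7% against 59.9%. Both shares only describe this list, since it was chosen with earlier results known. IFNAR2, a chain of the type I interferon receptor, fell by 0.85 in set 3 and by 0.92 in set 2 on a log2 scale, at 25.5 ± 1.38, 24.4 ± 1.66 and 46.1 ± 3.44 CPM in set 3, set 2 and puro (SD, n = 3 each). The other chain, IFNAR1, fell by 0.54 in set 3 but rose by 0.58 in set 2 on the same scale. IFNGR2, a chain of the interferon-gamma receptor, rose by 0.29 and 0.51, while the other chain IFNGR1 fell by 0.29 and by 0.38, in set 3 and set 2 on the log2 scale. JAK2, the kinase bound to IFNGR2, rose by a log2 fold change of 0.80 in set 2, with 0.10 in set 3 not passing. JAK2 lies near CD274 on chromosome 9, and its difference of set 3 from set 2 was -0.69 (edgeR adjusted p = 3.34e-06).

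Of 11 genes listed as acting on class I, most work through polycomb silencing or turnover at membranes. In set 3, 4 rose and 1 fell, and in set 2, 3 rose and 3 fell, with median log2 fold changes of 0.06 and 0.04. This was 45.5% of the list called in set 3 and 54.5% in set 2. SPPL3, which is of neither kind, fell by 0.33 on the log2 scale in set 2, with -0.04 in set 3 not passing. MARCHF4, a membrane ubiquitin ligase that downregulates class I in overexpressing cells, rose by a log2 fold change of 1.52 in set 3, at 36.7 ± 2.80 CPM in set 3, 13.2 ± 1.49 CPM in set 2 and 12.8 ± 1.70 CPM in puro (SD, n = 3 each). The set 2 log2 fold change of 0.05 did not pass and changed sign without some columns. SUZ12, a core subunit of polycomb complex PRC2, fell by 0.64 in set 3 and by 0.93 in set 2 on a log2 scale. SUSD6, which acts with TMEM127 and WWP2 to send class I to lysosomes, rose by a log2 fold change of 0.33 in set 3 and 0.82 in set 2. WWP2 rose as well, by a log2 fold change of 0.82 in set 3 and 0.54 in set 2, and TMEM127 by 0.60 in set 3, with -0.12 in set 2 not passing.

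Of 15 tested genes known to act on PD-L1, 4 rose and 8 fell in set 3, and 3 rose and 7 fell in set 2, with median log2 fold changes of -0.25 and -0.19. The share called was 80% in set 3, against 55.6% of all tested genes, and in set 2 66.7%, near the background of 59.9%. These shares only describe the list, which was chosen with earlier results known. The transcription factor MYC rose by 0.97 in set 3 and fell by 0.39 in set 2 on the log2 scale, at 202 ± 15.7 CPM in set 3, 78.6 ± 2.74 CPM in set 2 and 103 ± 2.45 CPM in puro (SD, n = 3 each). CMTM4, which shields PD-L1 from degradation, fell by 0.88 on the log2 scale in set 3, with 0.10 in set 2 not passing. HIP1R, which carries PD-L1 to lysosomes, fell by 0.33 in set 3 and by 0.98 in set 2 on a log2 scale, and SPOP and COP1, parts of ubiquitin ligases, fell in set 3 (log2 fold changes -0.63 and -0.31) and in set 2 (-0.52 and -0.80). GSK3B, the kinase that marks PD-L1 for degradation, rose by a log2 fold change of 0.46 in set 2, with -0.16 in set 3 not passing.

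Other checkpoint ligands moved in both directions. Of 15 other ligands listed, 10 were tested, 3 of which rose and 2 fell in set 3, and 3 rose and 3 fell in set 2, with median log2 fold changes of 0.02 and 0.03. This was 50% of the tested ligands in set 3 and 60% in set 2. PDCD1LG2, the PD-L2 gene beside CD274, was at 9.32 ± 0.906 CPM in set 3, 11.3 ± 0.661 CPM in set 2 and 12.5 ± 0.787 CPM in puro (SD, n = 3 each). It fell by 0.43 in set 3 on the log2 scale, and its -0.15 in set 2 did not pass. VSIR, the VISTA gene, rose by 0.97 in set 3 and fell by 1.23 in set 2 on the log2 scale, at 8.79 ± 1.05, 1.92 ± 0.327 and 4.50 ± 0.333 CPM in set 3, set 2 and puro (SD, n = 3 each). CD47, the signal that restrains macrophages, rose by a log2 fold change of 0.75 in set 2, with -0.12 in set 3 not passing, and CD276, the B7-H3 gene, rose by 0.42 in set 2, with 0.12 in set 3 not passing. TNFRSF14, a ligand of BTLA, rose by a log2 fold change of 1.11 in set 3, lost in 1 of 17 alternatives, and 1.73 in set 2, at 1.60 ± 0.708, 2.47 ± 0.562 and 0.747 ± 0.283 CPM in set 3, set 2 and puro (SD, n = 3 each). The T cell costimulators CD80 and CD86 were at or near 0, at most 0.039 CPM on average in any kind of column.

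Class II display, the route to CD4 T cells, was close to silent. Of 11 class II genes 4 passed the filter, and 1 of these, HLA-DPB1, fell in set 3 (log2 fold change -1.95, at 0.138 CPM in set 3 and 0.539 CPM in puro), with -1.21 in set 2 not passing. CD74, the invariant chain gene, was the highest at 8.92 ± 1.02 CPM in set 3, 8.65 ± 0.174 CPM in set 2 and 8.63 ± 0.330 CPM in puro (SD, n = 3 each). HLA-DRA was at 0.00 CPM in set 3, 0.014 CPM in set 2 and 0.010 CPM in puro.

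**Figure D4:**
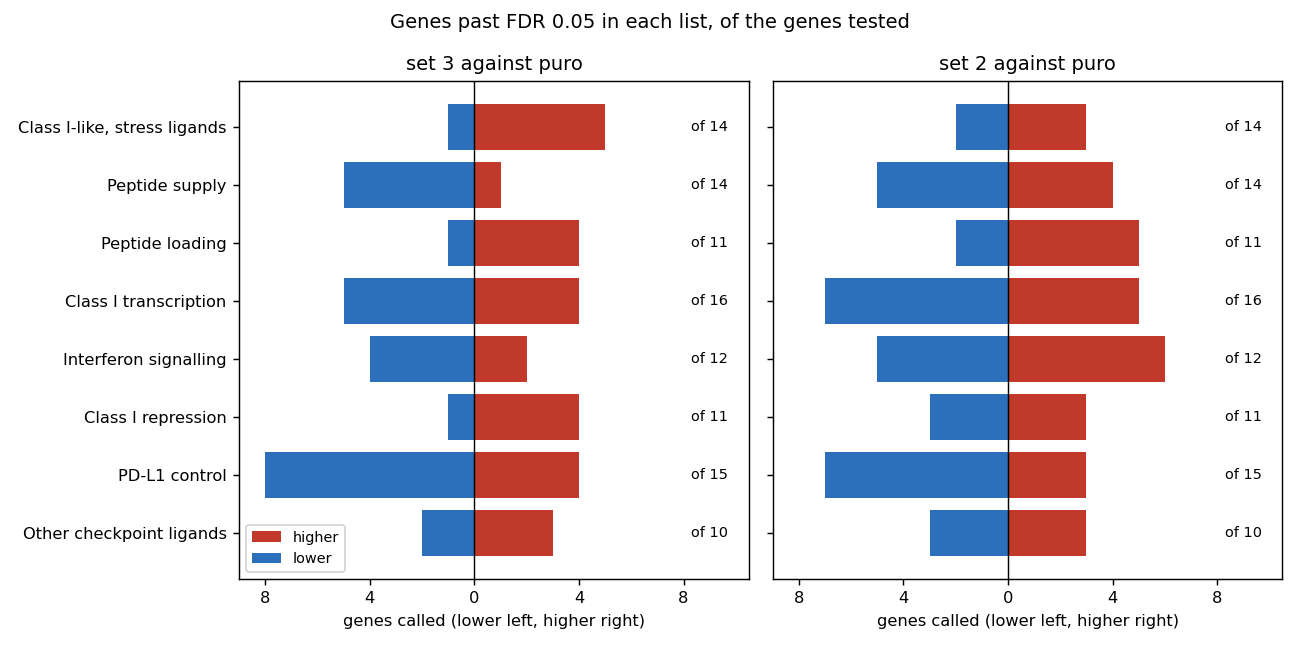
Genes past an edgeR FDR of 0.05 in 8 pathway lists, counted to the left where lower and to the right where higher, in set 3 and in set 2 against puro, with the number tested at the right edge. In set 3, 8 of 15 genes of the PD-L1 control list are lower, where 27.6% of all tested genes were lower. In set 2, 11 of 12 interferon genes are called, where 59.9% of all tested genes were called. The lists were chosen with earlier results of these data known, so these counts describe them and test nothing.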

How the data were processed

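RNA-seq was measured in 6 samples of 786-O cells, 3 shIGF2BP2 and 3 puro. Per the submitters' processing notes, the tools were fastp 0.23.2, STAR 2.7.10a, featureCounts and DESeq2, with hg38 as the build. Gene annotation, strand setting and multimapping rules were not given in the sources used here. The deposited counts are whole numbers of reads for each gene. The deposited FPKM values equal those counts rescaled by library total and 1 length per gene. The 9 columns were matched to samples by the last number of their names, a reading that no label spells out for the shIGF2BP2 columns.

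Counts were filtered (filterByExpr), TMM-scaled and tested with edgeR 4.0.16 in R 4.3.3: 1 quasi-likelihood fit of 9 columns gave set 3 against puro, set 2 against puro and set 3 against set 2, and a second fit used the summed columns. P-values were Benjamini-Hochberg adjusted over all tested genes, and an FDR of 0.05 with no minimum fold made a call. Standard errors came from the F statistic and 95% intervals from the t distribution. The test was checked on simulated data. Alternatives used other scalings and filters, DESeq2 1.42.0, limma 3.58.1, log2(FPKM + 1) and log2(FPKM + 0.1), a replicate block, and each column left out. Named list genes had at least 1 CPM and the largest rise or fall per list and set past the FDR, and the 3 nearest genes per profile had at least 5 CPM. The genes described and the 12 lists were chosen with earlier results of these data known. Shared sequence was counted as 50-base stretches of GENCODE 29 transcripts. Column totals were at least 33821216 counts, and the lowest of the 9 genes, NLRC5, had at least 511 counts in each column. Some genes that the naming rule or a list holds are not reported here.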

Additional observations from a re-analysis of the deposited data

Results flagged for a closer look

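Each of the following differed between the sets by the direct edgeR comparison of set 3 with set 2, given as the log2 effect in set 3 minus that in set 2. The CD274 difference was -0.53, with both sets above puro. The TAPBP difference was 0.37, with both sets above puro. The TAP2 difference was -0.39, with set 3 below puro and set 2 above it. The TAP1 difference was -0.27, and only set 3 passed against puro. The NLRC5 difference was -0.25 and the B2M difference -0.24, and neither gene passed against puro in either set. The IGF2BP2 difference was 0.49, with both sets below puro. Across all tested genes 60.7% differed between the sets by the same rule.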

How the results depend on the processing

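In 17 alternatives per gene and comparison, CD274 and HLA-C kept their direction and call in both sets against puro, as did TAP1 and TAPBP in set 3. In set 3 against set 2, CD274, TAP1, TAP2 and TAPBP did so in all 16. TAP2 lost its call in 7 alternatives in set 3 and in 5 in set 2, TAPBP in 7 in set 2. HLA-B in set 3 lost it in 1, and in set 2 it gained one in 5, as did B2M in 7. NLRC5 in set 3 gained one in 1, and B2M in set 3 against set 2 lost its call in 1 of 16. The cause was not tested.

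Log2 differences near 0 turned sign with upper quartile factors, library totals, the 1 CPM filter, log2(FPKM + 1) or log2(FPKM + 0.1). HLA-E in set 2 against puro became 0.0318, 0.0924, 0.00144, 0.0933 and 0.0945, and HLA-C in set 3 against set 2 became -0.0276, -0.119, -0.00804, -0.123 and -0.123. With library totals and both FPKM settings, TAP1 in set 2 became 0.00418, 0.0062 and 0.00644, CALM3 in set 2 0.0387, 0.0383 and 0.0385, HLA-B in set 3 against set 2 -0.0432, -0.0439 and -0.0441, and HLA-E in the summed comparison 0.00767, 0.00912 and 0.00925. Single columns left out also turned signs. HLA-E became 0.0069 and 0.0125 in set 3, 0.0556 and 0.00608 in set 2, 0.0182 in set 3 against set 2 and 0.0235 summed. B2M in set 3 became 0.00245, and HLA-C in set 3 against set 2 -0.0242, -0.0506 and -0.0143. TAP2 summed became -0.0193 and -5.26e-05, KCNK3 in set 2 -6.77e-05 and -0.0114, and MARCHF4 in set 2 -0.0548 and -0.032.

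Reading the first number of a column name as the sample left 1285 genes called for shIGF2BP2 against puro, summed per sample, against 7842, and 10 pathway-list genes, against 75. It has fewer samples. Same-numbered columns deviated from their means with correlations of -0.286 to 0.0934. With 3 columns of each kind these values cannot show whether same-numbered columns were handled together. With the replicate block 6942 genes passed for set 3 against puro, 7538 for set 2 against puro, 7636 for set 3 against set 2 and 7302 with columns summed. Under it TAP2 in set 3 had an edgeR adjusted p of 0.0692, and TAP2 and TAPBP in set 2 had 0.0663 and 0.0658.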
